A study of Mus musculus with 2 samples.

Results

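The genes described here digest disaccharides and carry hexoses across the lining of the small intestine. They are the disaccharidases Sis, Mgam, Lct and Treh, the sodium-coupled carriers Slc5a1, Slc5a4a and Slc5a4b, the facilitative carriers Slc2a5 and Slc2a2, and Mlxipl, which encodes the glucose-responsive transcription factor ChREBP. They were chosen by name, as every probe on the array that is not a control and carries 1 of these gene names. That gave 10 genes and 16 of the 41174 probes on the array. The array held 27617 gene names after names were updated by RefSeq accession where 1 was found. All 16 probes were well above background in both diets on both arrays, so none was lost to a filter on dim signal, and 5 genes had more than 1 probe.

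Total RNA of the small intestine was compared between C57BL/6 mice on a food antigen-free diet (FAF), which supplies amino acids and was kept up for as long as 5 generations, and C57BL/6 mice on conventional chow (Conv). All mice were 6 to 8 weeks old. The labels mention mice with a specific-pathogen-free flora (SPF) and germ-free mice (GF), and do not say which gave the RNA. The segment of the intestine, the number of mice behind a sample, and the sugar and starch content of the diets are not given in the sources used here. Each diet is represented by 1 RNA sample, hybridised to 2 two-colour Agilent arrays. The array called Cy5 below carried the FAF RNA in that dye and the Conv RNA in Cy3, and on the array called Cy3 the dyes were exchanged. Both arrays used the same RNA pair, so they repeat the measurement and not the animals, and no test between diets was possible. The number of arrays limits the precision, and the ± beside a ratio gives how far each array lay from the mean of both, which holds dye and hybridisation error and no spread between mice.

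Starch and disaccharides from food are split at the brush border, the apical membrane of absorptive enterocytes, by membrane-bound hydrolases that release glucose, galactose and fructose. Glucose and galactose enter the enterocyte with sodium through SGLT1, the product of Slc5a1, and fructose enters through GLUT5, the product of Slc2a5. Hexoses leave at the basolateral side, largely through GLUT2, the product of Slc2a2. ChREBP is known in mice to be needed for the intestinal response to fructose, with Slc2a5 among its targets.

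A gene was counted as higher or lower when its mean ratio of FAF over Conv was at least 2-fold and each array gave at least 1.5-fold the same way. By this rule of size 7 of the 10 genes were higher in FAF, and none of the 10 was lower. Over all 17160 measured genes, 1.53% were higher and 0.88% were lower by the same rule. The genes past the rule were Sis, Lct, Treh, Slc2a2, Slc2a5, Slc5a4b and Slc5a4a, and Mgam, Slc5a1 and Mlxipl stayed under 2-fold. Of the 16 probes, 10 passed as higher, against 1.25% of all measured probes that passed as higher and 0.692% that passed as lower. All 16 probes had a ratio above 0 on both arrays after loess normalisation. The median log2 ratio of the 10 genes was 1.10, or 2.14-fold, and that of all measured genes was -0.0009.

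The count rests on the removal of the intensity-dependent dye trend. When each array was centred on its median in place of loess, the 10 log2 ratios ran from 1.40 to 2.80 on the Cy5 array and from -0.35 to 0.68 on the Cy3 array, where Mgam, Slc5a1 and Mlxipl were below 0. The means of both arrays still reached 2-fold for 7 genes, but 9 of the 10 fell short of 1.5-fold on the Cy3 array, and Sis alone passed the rule.

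Oligonucleotides at separate places of a transcript gave close ratios. The probe sequences below are those of Slc5a4b, the gene with the most probes, and 2 others whose coordinates span more than their 60 bases. They are the letters of the deposited array files, 5′ to 3′, with no part set in capitals.
Mgam probe 2: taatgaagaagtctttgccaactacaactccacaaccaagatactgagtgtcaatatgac
Slc2a2 probe 2: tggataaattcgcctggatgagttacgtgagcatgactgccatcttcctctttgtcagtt
Slc5a4b probe 1: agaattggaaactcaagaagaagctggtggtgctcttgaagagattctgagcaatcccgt
Slc5a4b probe 2: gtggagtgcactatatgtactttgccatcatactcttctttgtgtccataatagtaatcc
Slc5a4b probe 3: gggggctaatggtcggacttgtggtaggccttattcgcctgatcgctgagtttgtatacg
In mouse build mm9, which the array files use, Mgam probe 2 is placed on the plus strand at chr6:40716016-40718228, a span of 2213 bases. Slc2a2 probe 2 is placed on the plus strand at chr3:28625253-28625961, a span of 709 bases. The Slc5a4b probes lie on the minus strand, probe 1 at chr10:75521366-75521383, probe 2 at chr10:75525000-75525059 and probe 3 at chr10:75525105-75525164. For Slc5a4b probe 1 the file gives only 18 of the 60 bases a position. A probe was printed only if at least 1 of its reading frames had no stop codon, so this holds for all 5 by selection. Exon and UTR annotation of mm9 was not used here.

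The disaccharidases Sis, Lct and Treh had the highest ratios of the 10 genes, and Mgam was below most of the carriers. The median of these 4 was 2.83-fold, and 3 of the 4 passed as higher. Sis encodes sucrase-isomaltase, which splits sucrose and the branch points of starch. Its probe lies on the minus strand of chromosome 3, at positions 72692810 to 72692869. On the Cy5 and Cy3 arrays in turn, Sis had normalised spot intensities of 144066 and 171965 in FAF and of 42417 and 55616 in Conv. Both FAF values lay above both Conv values, and the log2 ratio was 1.70 ± 0.07, or 3.24-fold. Its rank was 62 among the 17160 genes ordered by ratio from high to low.

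Lct encodes lactase-phlorizin hydrolase, the lactase that is abundant before weaning and declines afterwards in most mammals. Its intensity was 137016 and 149464 in FAF and 37120 and 58192 in Conv, by a probe on the minus strand of chromosome 1 at positions 130181389 to 130181448. The diets did not overlap, but the arrays gave log2 ratios of 1.88 and 1.36, the widest gap among the 16 probes. The mean was 1.62 ± 0.26, or 3.08-fold. Treh encodes trehalase, which splits trehalose, a sugar of fungi and insects. It had intensities of 17413 and 19375 in FAF and 6338 and 7813 in Conv, on the plus strand of chromosome 9 at 44494224 to 44494283. FAF was higher on both arrays, at a log2 ratio of 1.38 ± 0.07, or 2.61-fold.

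Mgam encodes maltase-glucoamylase, which releases glucose from maltose and from the ends of starch chains. Its brighter probe, on the plus strand of chromosome 6 at 40718887 to 40718946, had 124580 and 121234 in FAF and 57828 and 79712 in Conv. FAF was again higher on both arrays, but the log2 ratio of 0.86 ± 0.25, or 1.81-fold, stayed under the rule, with 1.11 on the Cy5 array and 0.60 on the Cy3 array. Probe 2, whose sequence is printed above, gave 25390.0 and 27042 in FAF and 13745 and 14109 in Conv. Its ratio of 0.91 ± 0.03, or 1.88-fold, was 0.06 above that of the brighter probe and held to much the same value on both arrays. Both probes thus placed Mgam below the other disaccharidases.

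**Figure D1:**
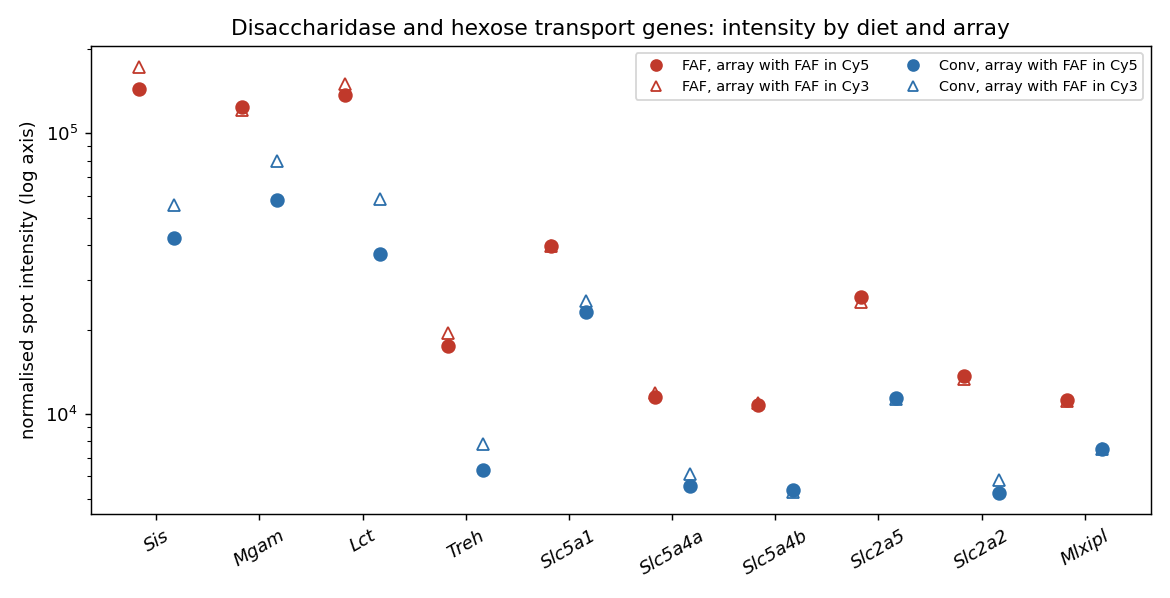
Normalised spot intensity (log axis) of each gene's brightest probe, in FAF (red) left of Conv (blue); circles are the array with FAF in Cy5 and triangles the array with FAF in Cy3. Both FAF values lie above both Conv values in all 10 genes, with the widest gaps for Sis and Lct and the narrowest for Mlxipl.

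Among the genes grouped here as carriers of the apical membrane, 3 of 4 passed as higher in FAF and the median log2 ratio was 1.02. Those 3 were Slc2a5 and the paralogues Slc5a4a and Slc5a4b, whose transport of glucose was not measured here. Slc5a1, the main glucose and galactose carrier, was the one that did not pass. Its probes lie on the plus strand of chromosome 5, probe 1 at 33504561 to 33504620 and probe 2 at 33504352 to 33504411. Probe 1 had 39619 and 39790.3 in FAF and 23020.4 and 25179 in Conv. Probe 2 had 29541 and 30165 in FAF and 16794 and 17760 in Conv. Both probes were higher in FAF on both arrays, with log2 ratios of 0.72 ± 0.06, or 1.65-fold, and 0.79 ± 0.03, or 1.73-fold.

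Slc5a4a and Slc5a4b encode the mouse SGLT3 proteins, relatives of SGLT1; human SGLT3 responds to glucose as a sensor and does not carry it. In the RefSeq table of GRCm38.p6 these genes are direct neighbours on chromosome 10, with 0 protein-coding genes between them. Slc5a4a, on the plus strand at 75651835 to 75651894 in mm9, had 11469 and 11856 in FAF and 5529 and 6105 in Conv. Its log2 ratio was 1.01 ± 0.05, or 2.01-fold, at the edge of the rule, with 2.07-fold on the Cy5 array and 1.94-fold on the Cy3 array. Besides median centring, it was lost as a call with the scanner software's own ratio, with the deposited value table, which holds that ratio, and with the Cy3 array alone.

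The 3 probes of Slc5a4b gave nearly 1 value. Probe 1 had 10752 and 10919 in FAF and 5356 and 5280 in Conv, for a log2 ratio of 1.03 ± 0.02. Probe 2 had 7928 and 7742 in FAF and 3597 and 4180 in Conv, for a ratio of 1.01 ± 0.13. Probe 3 had 7226 and 7351 in FAF and 3536 and 3451 in Conv, for a ratio of 1.06 ± 0.03. All 3 passed as higher, between 2.02-fold and 2.09-fold, and their means lay within 0.05 of each other. Slc5a4a and Slc5a4b are close paralogues, and how far a probe of the one binds RNA of the other was not tested.

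Slc2a5, the fructose carrier GLUT5, had 26156 and 25088 in FAF and 11388 and 11323 in Conv, by a probe on the plus strand of chromosome 4 at 149517775 to 149517834. FAF was higher on both arrays to nearly the same extent, at a log2 ratio of 1.17 ± 0.03, or 2.26-fold.

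Slc2a2, the basolateral carrier GLUT2, was higher in FAF by both of its probes. The brighter one, on the plus strand of chromosome 3 at 28627016 to 28627075, had 13701 and 13380.1 in FAF and 5247 and 5803 in Conv. Probe 2, printed above, had 3109 and 3178 in FAF and 1249 and 1327 in Conv. The log2 ratios were 1.29 ± 0.09 and 1.29 ± 0.03, or 2.45-fold and 2.44-fold, and differed by 0.01. This was the closest pair of probes in the set.

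Mlxipl had the lowest ratio of the set. Its brighter probe, on the plus strand of chromosome 5 at 135613505 to 135613564, had 11242 and 11122 in FAF and 7483 and 7487 in Conv. Its other probe, at 135613755 to 135613814, had 796 and 775 in FAF and 505 and 526 in Conv. FAF was higher by both probes on both arrays, at log2 ratios of 0.58 ± 0.01, or 1.49-fold, and 0.61 ± 0.05, or 1.52-fold. Mlxipl passed the rule under none of the 10 alternatives to the processing that kept the 2-fold limit, and the same held for Slc5a1. Not all of these 10 could differ from the main processing or from each other.

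**Figure D2:**
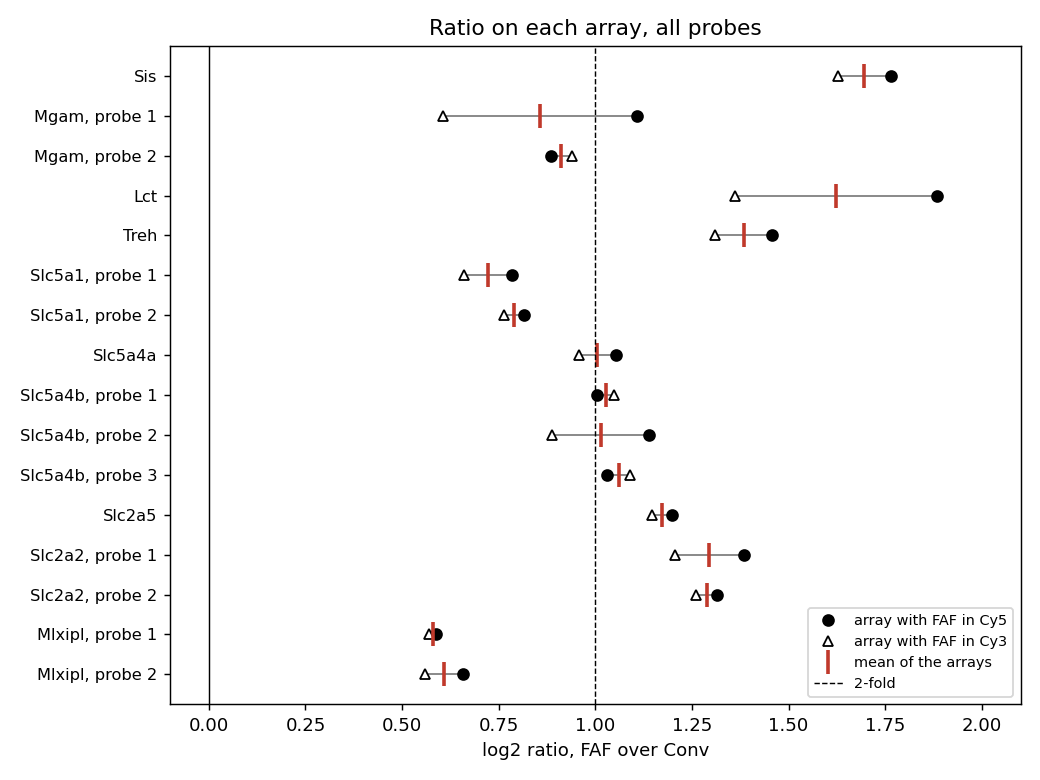
Log2 ratio of FAF over Conv for all 16 probes on the array with FAF in Cy5 (filled circles) and the array with FAF in Cy3 (open triangles), with the mean as a red bar and a dashed line at 2-fold. All points lie right of 0; Lct and probe 1 of Mgam have the widest gaps between arrays, and probes of the same gene lie close together.

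Ordered by their mean log2 ratio, the genes ran Sis 1.70, Lct 1.62, Treh 1.38, Slc2a2 1.29, Slc2a5 1.17, Slc5a4b 1.03, Slc5a4a 1.01, Mgam 0.86, Slc5a1 0.72 and Mlxipl 0.58. Neighbours in this order had array ranges without overlap only between Slc2a2 and Slc2a5, between Slc2a5 and Slc5a4b, and between Slc5a1 and Mlxipl. The means of these pairs differed by 0.12, 0.15 and 0.14, but the lowest array of Slc2a2 gave 1.2051 and the highest of Slc2a5 gave 1.1996. Such ranges come from 1 RNA pair and do not test whether the ratios of 2 genes differ. The other 6 neighbouring pairs overlapped, which includes Sis with Lct and Slc5a4b with Slc5a4a. In the order of all 17160 genes the ranks ran from 62 for Sis over 140 for Slc2a2 and 366 for Mgam to 800 for Mlxipl, so that 4.66% of genes had a higher ratio than Mlxipl. The ratio was larger on the Cy5 array for 9 of the 10 genes, Slc5a4b being the exception. The distance between an array and the mean exceeded the all-gene median of 0.06 in 6 of the 10.

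**Figure D3:**
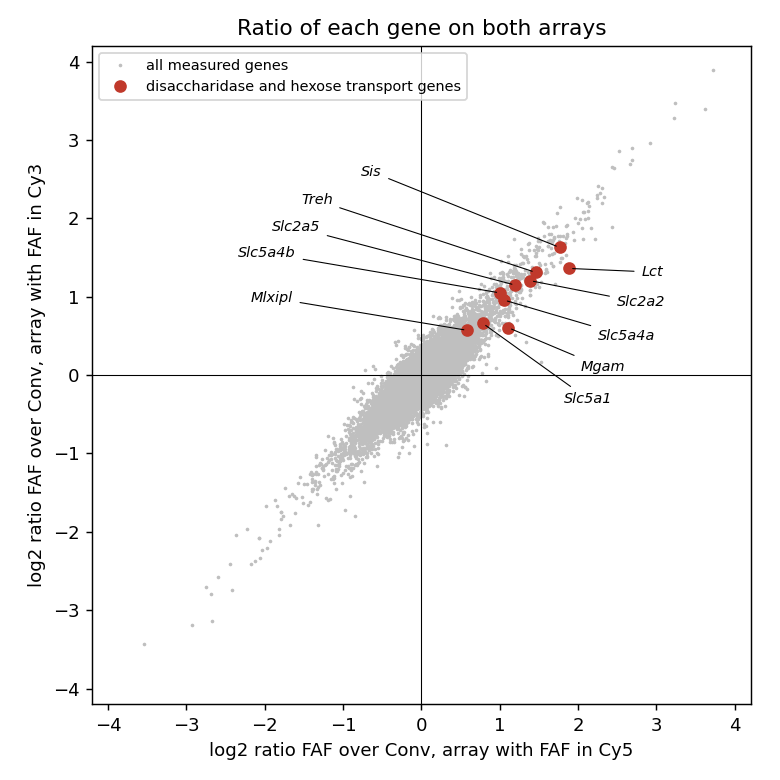
Log2 ratio of FAF over Conv of every measured gene (grey) on the array with FAF in Cy5 (x axis) and the array with FAF in Cy3 (y axis), with the 10 genes in red. All 10 lie in the upper right part of the plot; Lct and Mgam sit farthest to the right of the diagonal.

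Promoter windows were read for motifs of the factors known to act on these genes in enterocytes, CDX2, GATA factors and E-box proteins. All 10 genes were found in the RefSeq promoter table of GRCm38.p6, with windows of 250 bases before and 50 bases after the annotated start and 11 windows in all, since Mlxipl has 2. Each motif was searched on both strands, and the motifs were picked after the windows had been seen. The CDX core TTTAT occurred in windows of 5 of the 10 genes (Lct, Mgam, Sis, Slc5a4a and Slc5a4b) and in 40% of all 32851 windows. The GATA core GATAA occurred in 4 of the 10 (Lct, Mgam, Slc2a2 and Slc5a4b) and in 25.4% of all windows. The E-box CACGTG occurred in 3 of the 10 (Mgam, Mlxipl and Slc5a1) and in 7.15% of all windows. An exact pair of E-boxes with 5 bases between them, the ideal form of the site ChREBP binds, occurred in 0 of the 10 and in 0 of all 32851 windows.

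The 150 bases before the start of Sis and Lct, the genes of highest ratio, are shown with each match to TTTAT or its reverse complement in capitals. Matches to TTTAT and GATAA can share letters.
Sis: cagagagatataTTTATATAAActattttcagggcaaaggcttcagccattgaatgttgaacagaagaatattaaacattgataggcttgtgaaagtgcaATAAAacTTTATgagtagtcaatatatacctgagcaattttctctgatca
Lct: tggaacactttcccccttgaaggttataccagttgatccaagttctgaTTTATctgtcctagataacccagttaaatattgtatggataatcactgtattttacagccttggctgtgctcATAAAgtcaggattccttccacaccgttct
The Sis stretch is the minus strand of chr3:72967864-72968013 and the Lct stretch the minus strand of chr1:128328319-128328468, both in GRCm38.p6. Sis held 4 matches, of which the pair at positions -50 and -43 from the start is an inverted repeat and lies in the element called SIF1, a known CDX2 site of the sucrase-isomaltase promoter. Lct held 2 matches, at -102 and -30, and these were not compared with known CDX2 sites. Only TTTAT was searched for as a CDX core, so a CDX2 site of other letters would stay in small letters. A match is a description of these letters and says nothing of binding in either diet.

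The ratios of related genes set the 10 genes in context. Of the other SLC2 carriers, all 9 with a probe of their name were measured, 0 passed in either direction, and 7 of 9 had a ratio below 0, with a median of -0.13 that ranged from -0.37 to -0.12 over the alternatives. Slc2a4, the insulin-responsive carrier of muscle and fat, had 906 and 900.2 in FAF and 1238 and 1299 in Conv, a log2 ratio of -0.49 ± 0.04. Slc2a1, a carrier of many cell types, had -0.30 ± 0.36, with the arrays on either side of 0. None of these 9 had a ratio above 0.21, against 1.29 for Slc2a2 and 1.17 for Slc2a5.

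Of the other SLC5 symporters, 8 of 10 were measured, 1 passed as higher and none as lower, with a median of 0.38 that ranged from 0.04 with no filter on dim probes to 0.68 with only genes well above background in both diets. Slc5a12, a lactate carrier, passed, with 4883 and 5735 in FAF and 2405 and 2436 in Conv, a log2 ratio of 1.13 ± 0.11. Slc5a9, the mannose and glucose carrier SGLT4, had 0.98 ± 0.17 and did not pass; it was picked with its value in view. Slc5a2, the kidney glucose carrier SGLT2, was not well above background.

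All 6 genes of fructose metabolism were measured, 3 passed as higher, 0 passed as lower, and their median log2 ratio was 1.13. Sord, which makes fructose from sorbitol, had 11453 and 12635 in FAF and 4634 and 4436 in Conv, a ratio of 1.41 ± 0.10, or 2.65-fold. The gluconeogenic Fbp1 had a ratio of 3.51 ± 0.11. Khk, the ketohexokinase that starts fructose breakdown, had 0.85 ± 0.21 and did not pass; it was picked with its value in view. Slc2a5 had a ratio above that of Khk and below those of Sord and Fbp1.

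Of 10 partners and glucose-response targets of ChREBP, 1 passed as higher and 0 as lower, with a median of 0.15. The gene that passed was G6pc, the catalytic subunit of glucose 6-phosphatase, with 2563 and 2752 in FAF and 799 and 831 in Conv, a ratio of 1.70 ± 0.02. Next in size came Tkfc at 0.73 ± 0.05, and Gpd1 at 0.70 ± 0.02 by its brighter probe and 0.42 by the other. With a limit of 1.5-fold, 3 of the 10 passed as higher, and 4 of the 10 had a mean ratio below 0. Txnip, a widely used read-out of glucose-responsive transcription, had a ratio of -0.0027. Mlx, the partner with which ChREBP binds DNA, had 0.15. Tkfc, Gpd1, Txnip and Mlx do not fall under the naming rule and were picked with their values in view.

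Of 13 transcription factors known to act on enterocyte sugar genes, 0 passed in either direction and the median was -0.01, with a sign that changed among the alternatives (-0.07 to 0.03). The ratios of largest size were those of Gata6, at 0.67 ± 0.02 by its brighter probe and 0.45 by the other, and of Hnf4g, at 0.57 ± 0.01. Cdx2 had -0.09 and was picked with its value in view. Of 7 genes that keep up or anchor the sodium gradient on which SGLT1 depends, 0 passed in either direction and the median was 0.40, against 0.16 on the Cy3 array alone; Pdzk1, a scaffold of the brush border, had 0.88 ± 0.0016, and Atp1b1, a subunit of the sodium pump, had 0.60 ± 0.06. Of 13 measured glycoside hydrolases of other sites, mostly lysosomal, 0 passed in either direction and the median was 0.07, against 0.11 on the Cy5 array alone, with Gla at -0.68 ± 0.06, where a second Gla probe had -0.16. Of 6 measured genes of sweet taste and glucose sensing, 1 passed as higher and 0 as lower, with a median of 0.08, against 0.16 on the Cy5 array alone and 0.35 with the software's ratio. That gene was Gip, the incretin hormone of K cells, with 6591 and 6943 in FAF and 3197 and 3460 in Conv, a ratio of 1.02 ± 0.02.

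**Figure D4:**
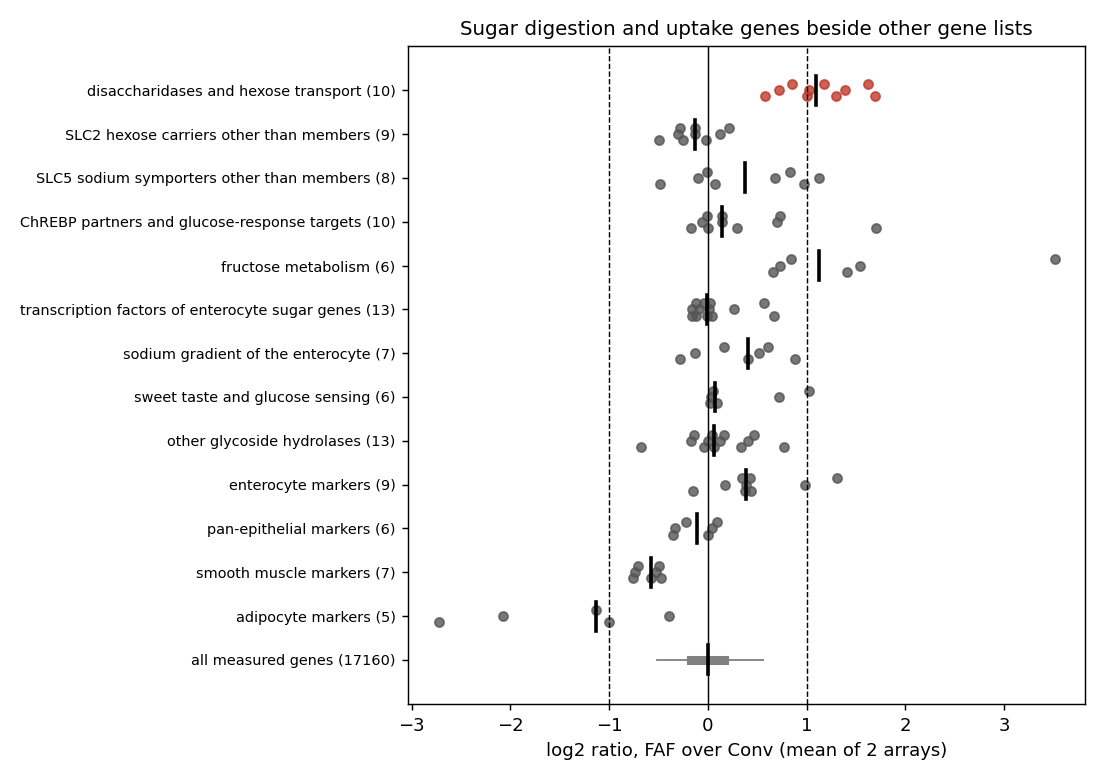
Mean log2 ratio of FAF over Conv for the 10 genes (red) and for the measured genes of each other list (grey), with list medians as black bars, the number of genes in parentheses, dashed lines at 2-fold either way, and for all genes the 25th to 75th (thick) and 5th to 95th (thin) percentiles. The red points lie between 0.58 and 1.70, above the 0.56 that marks the 95th percentile of all genes; smooth muscle and adipocyte markers lie below 0.

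For the labelled tissue, all 9 enterocyte markers and all 6 pan-epithelial markers were well above background in both diets. Of the enterocyte markers 8 had a ratio above 0 and 1 passed as higher, with a median of 0.39; Alpi, intestinal alkaline phosphatase, had 1.31 ± 0.10 by its brighter probe and 0.93 by its other one. Their summed intensity was 493815 and 471164 in FAF and 346024 and 403998 in Conv, against 536012 and 574193 in FAF and 201726 and 262510 in Conv for the 10 sugar genes. Sis, Mgam and Lct made up most of the sum of the sugar genes in both diets. Every one of the 10 had a ratio above the enterocyte marker median, by 0.19 for Mlxipl up to 1.31 for Sis. By their means, all 9 enterocyte markers had a smaller ratio than Sis, Lct and Treh, although on the Cy3 array Alpi, at 1.41, lay above Lct at 1.36 and Treh at 1.31. By the same means, 7 of the 9 had a smaller ratio than Mgam, Slc5a1 and Mlxipl. In bulk RNA, fewer cells of a type and less RNA per cell cannot be told apart.

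Pan-epithelial markers had a median of -0.11 with 0 of 6 passing in either direction, the lowest being the keratins Krt18 at -0.36 ± 0.05 and Krt19 at -0.33 ± 0.13, and a summed intensity of 289357 and 264622 in FAF and 293240.3 and 326351 in Conv. All 7 smooth muscle markers had a ratio below 0 with 0 passing, a median of -0.58 and sums of 61149 and 61671 in FAF and 96637 and 88117 in Conv. The lowest were the filament genes Synm at -0.76 ± 0.06 and Des at -0.74 ± 0.16. Of the adipocyte markers 5 of 6 were measured, all below 0, and 3 passed as lower, with a median of -1.13 (-2.28 with the software's ratio), Cfd at -2.72 ± 0.02, Adipoq at -2.08 ± 0.0015 and Plin1 at -1.13 ± 0.04. Their sums were 8437 and 9315 in FAF and 15729 and 15241 in Conv, and Lep was not well above background. The part of these marker values in the ratios of the sugar genes was not tested.

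Of 6 exocrine pancreas markers, Prss2, Pnlip and Cela2a were not well above background, and the 3 others summed to 428 and 459 in FAF and 421 and 517 in Conv; Ctrb1 had a ratio of -0.21 ± 0.17 and Cel 0.13 ± 0.0005. Of 4 hepatocyte markers with a probe, Ttr was not well above background, while Apob, which enterocytes also make, passed as higher at 1.16 ± 0.04, with other probes down to 0.78. The list summed to 19835 and 16635 in FAF and 9387 and 7489 in Conv, nearly all of it Apob, and had a median of -0.16 that ranged from -0.80 to 0.22 over the alternatives. Alb was not well above background in FAF. Of 4 kidney proximal tubule markers, Slc34a1, Umod and Lrp2 were not well above background, and Slc22a6 had 76 and 84 in FAF and 83 and 82 in Conv, a ratio of -0.04 ± 0.08.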

How the data were processed

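Scanner output was deposited as linear intensity, the mean of each spot and its local background in each dye, made with Agilent Feature Extraction, version 11.5.1.1, according to the headers. The same deposited output has a log10 ratio, Cy5 over Cy3, corrected for background and dye by the software, per the file headers, and spot flags of 0 or 1 for saturation, outliers and background. The series' value table, also deposited, is that log10 ratio to within 5e-08, in Cy5 over Cy3 on both arrays, with a column median of 0.

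Mean intensities were corrected by normexp (offset 50) and loess within each array, with control spots at weight 0, in limma 3.58.1 and R 4.3.3, then scaled between arrays on average intensity for the levels printed. Following the labelled dyes, log2 ratios were turned to FAF over Conv and averaged over the 2 arrays. Flagged spots were left out, and 0 spots were saturated. Probes counted as measured if 1 diet or both stood well above background on each array (25438 of 41174), and a gene took its brightest measured probe. RefSeq names of GRCm38.p6 were found for 27668 probes by accession. Member probes had 10.3 to 5600.1 times their local background. With ratios left in the dyes' direction, 0 genes passed the rule of size. The steps were tested on simulated data, into which the dye trend removed by loess was put back. Because the same loess was then run again, that test cannot show whether loess suits these arrays.

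The genes, the 15 lists beside them and the rule of size were chosen with earlier results of these data known. Named genes are all members and, of each list, up to 4 genes past the rule of size or otherwise the 2 of largest ratio; exceptions are marked, and some genes this rule takes are withheld and not reported here. Alternatives covered background correction, normalisation, the ratio used, dim probes, probes of a gene, the fold limit and each array alone.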

Additional observations from a re-analysis of the deposited data

How the results depend on the processing

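Of the 10 genes, 7 passed as higher in FAF with loess; 1 passed with median centring in place of loess, where Sis alone kept at least 1.5-fold on both arrays, and 0 passed when a mean of at least 4-fold was asked for. With a limit of 1.5-fold 9 passed, all but Mlxipl, and each array alone gave 6 to 8. The software's ratio and the deposited table, which holds that same ratio, each gave 6, and the other settings gave 7. Among the latter, the settings for dim probes could not change these genes, whose probes all stood well above background in both diets. No setting called 1 of the genes lower, and no mean ratio of the 10 was below 0 under any setting. Their median log2 ratio, 1.10, ran from 1.10 to 1.15 when 1 array was left out and from 1.10 to 1.13 otherwise. With the 2-fold limit, Mgam passed only when the array with FAF in Cy3 was left out. Median centring ended the calls of Slc5a12, Gip and Apob and left 2 fructose genes past the rule; 2 of the other SLC5 genes passed with an offset of 10, the software's ratio, the deposited table or the array with FAF in Cy5 by itself; Gip was also lost with the software's ratio and the deposited table, and Apob with the mean over its probes. Over all genes, 263 passed as higher and 151 as lower; the software's ratio and the deposited table each gave 487 and 350, median centring gave 183 and 82, the 1.5-fold limit 775 and 616, and the 4-fold limit 31 and 18. Leaving out 1 array gave 268 to 286 higher and 144 to 172 lower. The median of all genes stayed within 0.1 of 0 under the settings run. No paired analysis was possible because each diet has 1 RNA sample. Animals were not replicated, so the spread between mice is unknown.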

Other observations

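Slc2a4 is spotted 10 times on each array, which gives the scatter of 1 probe within an array. Its spots had log2 ratios of FAF over Conv from -0.50 to -0.35 on the array with FAF in Cy5 (median -0.46) and from -0.58 to -0.48 on the array with FAF in Cy3 (median -0.53).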
